A study of Mus musculus with 15 samples.

Results

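The comparison described here sets RAW264.7 cells given the coded steroid VSG158 against cells given vehicle. Its members were chosen by sample title: 3 VSG158 arrays and 3 vehicle arrays, 6 of the 15 arrays of the series, all of them on the same slide. RAW264.7 is a mouse macrophage-like cell line, and VSG158 is known here only by its code. The VSG158 group received 100 nM of the steroid for 1 h and then 1 ug per ml of LPS, the bacterial lipopolysaccharide, for 16 h. The vehicle group is labelled with ethanol and DMSO alone. The protocol text common to all samples includes LPS, so the comparison assumes that the vehicle cells received it too. Other groups of the series, given VSG159, fluticasone furoate or dexamethasone, entered the fit to estimate the spread, and a probe could also enter the test through its signal in them. The labels give 3 replicates in each group, whereas the series text speaks of duplicates. Nothing states that the replicates were separate cultures, so p-values measure the spread between these samples, which may be technical.

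LPS binds Toll-like receptor 4 and switches on NF-kB and AP-1 target genes such as cytokines and chemokines. It also induces interferon beta, which acts back on the cell through the interferon receptor and STAT factors to turn on interferon-stimulated genes. Strongly activated macrophages leave the cell cycle. Glucocorticoids bind the glucocorticoid receptor, a nuclear receptor that raises the transcription of some genes, such as Fkbp5, and restrains much of the inflammatory programme.

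Levels are log2 processed signals minus the 75th percentile of the same array, so that 0 is that percentile and a change of 1 is a doubling. They rank samples for 1 probe and are not compared between genes. A gene was called when its adjusted p, from limma with Benjamini-Hochberg adjustment over all genes, was under 0.05. Errors after a change are its standard error, with n = 3 arrays per group unless a smaller number is given, since outlier spots were left out.

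Between 39.6% and 50.3% of noncontrol spots were well above background on the 6 arrays, and no spot was saturated. The lowest share was that of VSG158 replicate 2, against 46.4% to 50.3% on the other 5 arrays. That array also had the most spots flagged as population outliers, 136 against 51 to 91. Arrays of the same group correlated at 0.989 to 0.992 for vehicle and at 0.974 to 0.985 for VSG158, and arrays of different groups at 0.944 to 0.963. VSG158 replicate 3 stood apart, with 889 non-uniform spots against 32 to 75 on the other 5 arrays, and the counts of the main lists are also given without it. Vehicle filled positions 1 to 3 and VSG158 positions 4 to 6 of the slide, so within these 6 arrays compound and position cannot be told apart.

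Of 19504 genes tested, 8623 were called (44.2%), 3848 of them higher (19.7%) and 4775 lower (24.5%) with VSG158. Changes of at least 2-fold were called for 3304 genes (16.9%), 1520 of them higher (7.79%) and 1784 lower (9.15%). The median change of all genes was -0.06. The 6 arrays separated completely by group for 10045 of the 18931 genes with a value on each (53.1%), with VSG158 above for 22.8% and below for 30.3%. With a linear term for array position and slide as a block, 5809 genes were called, and with arrays scaled to their median 4992 were called. Because so many genes moved, each list count of the main fit that follows is to be read against these shares. Median scaling and the array position lowered the calls over all genes too. List counts under those fits are therefore not to be read against the main shares, and a smaller count there is not particular to its list. The lists were compiled with earlier results of these data known.

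**Figure D1:**
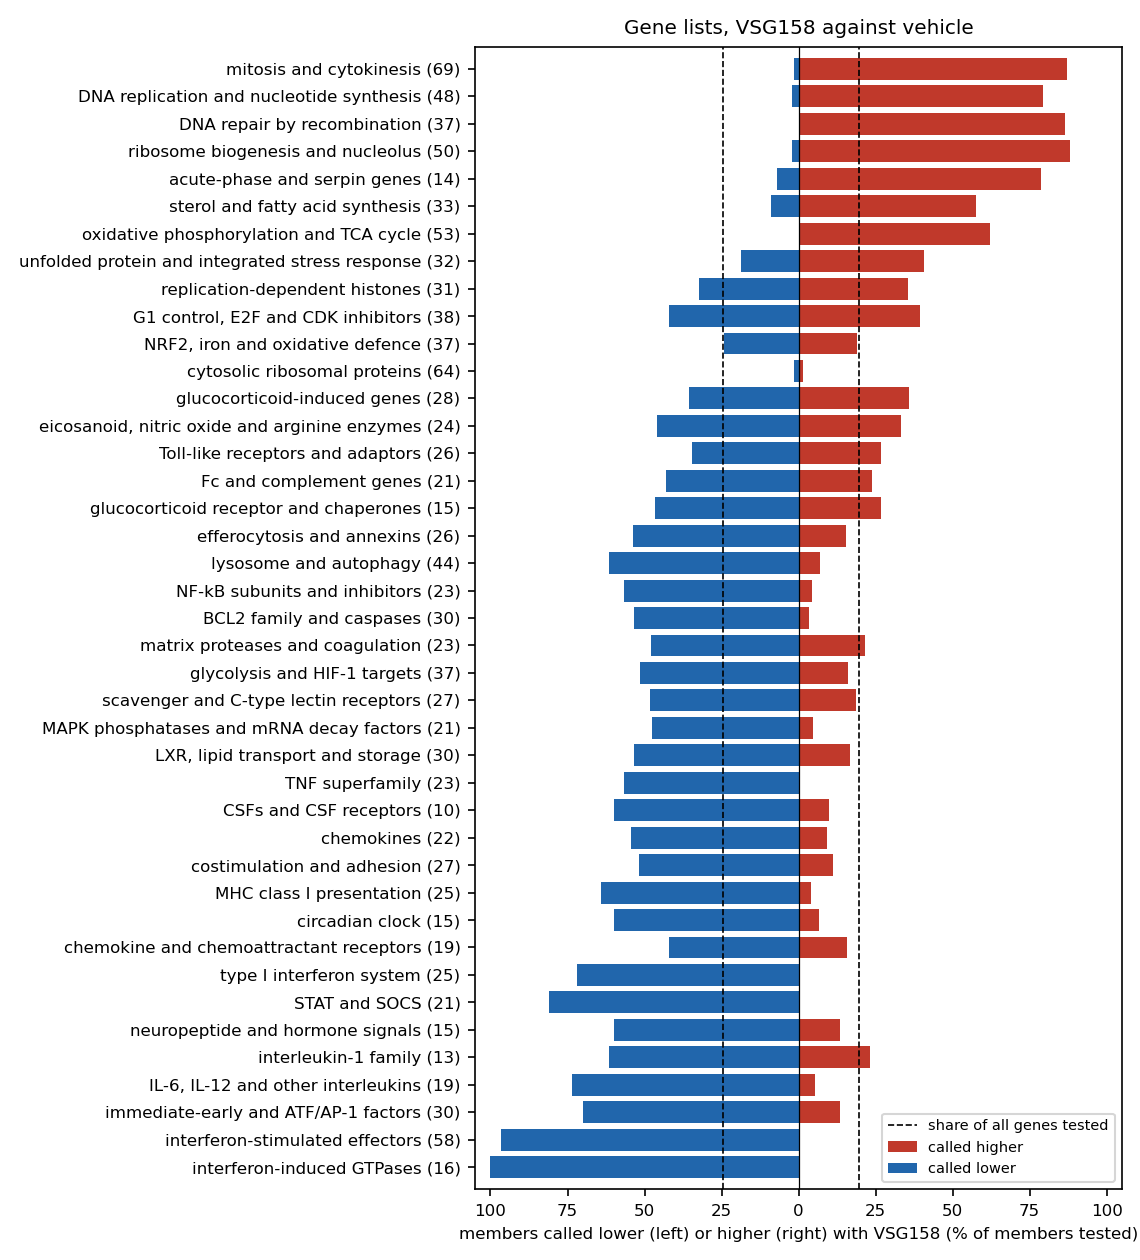
Share of the tested members of each gene list called lower (bars to the left, blue) or higher (bars to the right, red) with VSG158 against vehicle, in percent, with the number of members tested in parentheses. Dashed lines mark the shares over all 19504 genes, 24.5% lower and 19.7% higher. Lists of interferon-induced genes lie almost wholly on the lower side and lists of DNA replication, mitosis and ribosome biogenesis genes almost wholly on the higher side.

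Interferon-stimulated effectors, the antiviral proteins made after interferon signalling, fell almost without exception. Of 58 members tested, 56 fell (96.6%, against 24.5% of all genes), none rose, and the median change was -1.30. The other two, Ifitm3, which blocks virus entry (change -0.22, adjusted p = 0.143), and Ms4a6d (-0.08), were not called. Without VSG158 replicate 3 the count was again 56.

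Cmpk2, a nucleotide kinase of mitochondria, measured 6.50, 6.47 and 6.50 on the vehicle arrays and 0.99, 1.44 and 1.18 on the VSG158 arrays. Its change of -5.29 (SE 0.15, limma adjusted p = 7.2e-10) is a 39.0-fold fall. Rsad2 (viperin, an enzyme that makes a chain-terminating nucleotide) measured 7.69, 7.76 and 7.85 with vehicle and 1.17, 2.15 and 1.97 with VSG158. The VSG158 arrays lay far below the vehicle arrays for both genes, with the lowest value on replicate 1. In the array design, which names build mm9, the Rsad2 probe lies at chr12:27127859-27127918 on the minus strand and the Cmpk2 probe at chr12:27164134-27164193 on the plus strand.

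The Ifit genes code for proteins that bind foreign RNA and slow its translation. All 6 tested members of this name family fell, from -0.60 for Ifit1bl2 to -5.82 for Ifit2, with a median of -4.46. Ifit3 measured 5.43, 5.50 and 5.38 with vehicle and 0.87, 0.96 and 1.10 with VSG158, a 22-fold fall (change -4.46, SE 0.12, limma adjusted p = 6e-10). Its arrays varied little within either group. The probes of Ifit2 (chr19:34650244-34650303) and Ifit3 (chr19:34663105-34663164) are neighbours on the plus strand in mm9. Mx1, a dynamin-like GTPase that traps viral nucleocapsids, measured 2.16, 2.24 and 2.17 with vehicle and -2.96, -2.66 and -2.46 with VSG158, a 29.5-fold fall. Members with smaller falls include the ubiquitin-like modifier Isg15 (-1.38, SE 0.09), its protease Usp18 (-1.70, SE 0.12), the oligoadenylate synthetase relatives Oasl2 (-2.10) and Oas1a (-0.25), and tetherin, Bst2 (-0.45).

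Interferon-induced GTPases attack membranes of vacuoles that hold pathogens. All 16 members tested fell (24.5% of all genes did), with a median of -2.05, all by at least 2-fold, and all 16 did so without VSG158 replicate 3. Tgtp2, of the immunity-related GTPases, measured 2.01, 2.16 and 1.96 with vehicle and -2.09, -2.30 and -1.88 with VSG158. Gbp2b, a guanylate-binding protein, measured 3.08, 3.0 and 2.86 with vehicle and -0.93, -0.66 and -0.90 with VSG158. For these GTPases the replicates of each group lay close together and the groups about 4 log2 units apart: the changes were -4.13 (SE 0.11) for Tgtp2 and -3.81 (SE 0.14) for Gbp2b. The 9 Gbp genes tested fell by between -1.18 (Gbp10) and -3.81. Genes of these families are near-copies of each other, and how far a probe reads its neighbours was not tested.

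**Figure D2:**
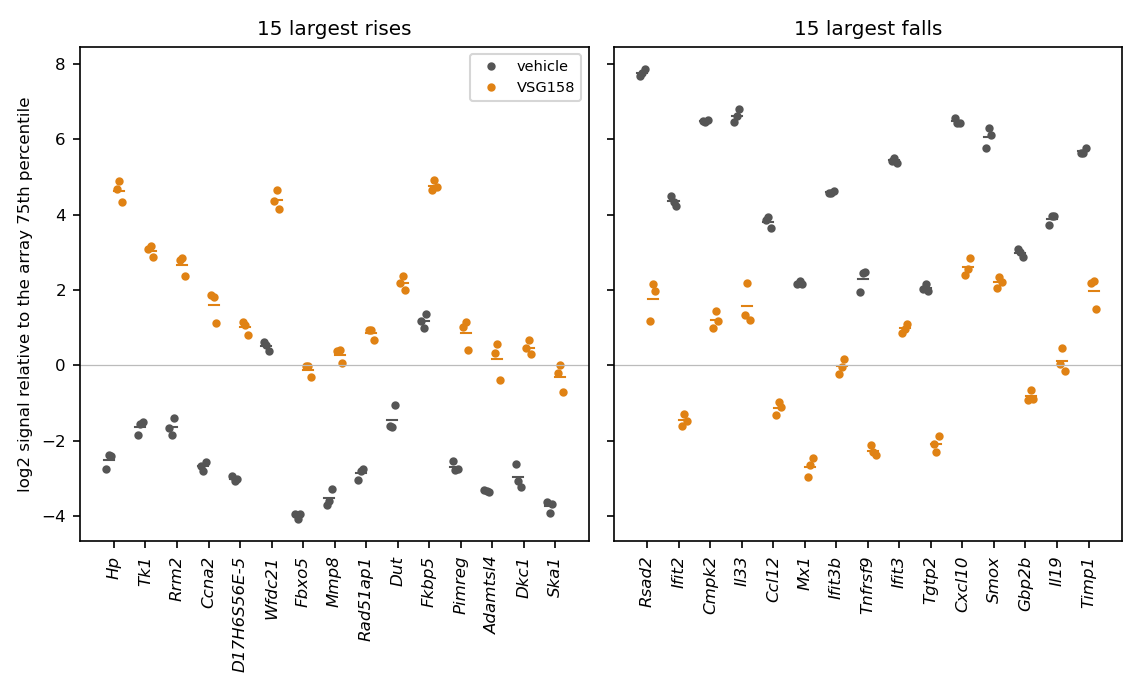
Log2 processed signal relative to the array's 75th percentile (vertical axis) on the 3 vehicle arrays (grey points) and the 3 VSG158 arrays (orange points) for the 15 genes with the largest rises and the 15 with the largest falls, with short lines at the group means. The groups do not overlap for any of these genes, which the selection required, and the distance between groups runs from 3.44 for Ska1 to 7.16 for Hp among the rises.

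The promoter letters of these genes were searched, and some stretches that hold a match are shown so that the letters can be seen. Whether the letters have a part in the falls was not tested. Windows of 250 bases before to 50 bases after the start of a gene were taken from RefSeq (GRCm38.p6) for 11714 of the 19504 tested genes. The interferon-stimulated response element was searched on both strands as GAAA, any 2 bases, then GAAA again. These letters stood in 20 of the 47 interferon-stimulated effectors with a window (42.6%), in 5.60% of the genes called lower, in 14% of those called lower by at least 4-fold, in 3.58% of those called higher and in 3.99% of all 27025 genes with a window. Capitals mark the matched letters, each sequence runs 5′ to 3′ on the strand of the gene, and every stretch stops before the start site. The changes of these genes were -3.43 for Ifit1, -4.46 for Ifit3, -6.01 for Rsad2, -3.88 for the chemokine Cxcl10, -3.63 for Gbp2, -4.13 for Tgtp2 and -1.38 for Isg15.
Ifit1 (chr19:34640760-34640838, plus strand): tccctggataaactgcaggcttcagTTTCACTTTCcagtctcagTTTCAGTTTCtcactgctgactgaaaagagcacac
Ifit3 (chr19:34583348-34583441, plus strand): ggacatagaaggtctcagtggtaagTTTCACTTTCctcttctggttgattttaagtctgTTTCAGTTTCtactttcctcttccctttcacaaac
Rsad2 (chr12:26456538-26456597, minus strand): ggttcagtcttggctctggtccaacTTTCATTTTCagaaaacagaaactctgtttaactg
Cxcl10 (chr5:92349068-92349127, minus strand): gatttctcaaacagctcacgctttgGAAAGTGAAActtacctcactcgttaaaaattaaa
Gbp2 (chr3:142620579-142620638, plus strand): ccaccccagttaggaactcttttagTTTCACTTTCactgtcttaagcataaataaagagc
Tgtp2 (chr11:49064248-49064307, minus strand): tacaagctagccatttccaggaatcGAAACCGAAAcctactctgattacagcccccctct
Isg15 (chr4:156200850-156200921, minus strand): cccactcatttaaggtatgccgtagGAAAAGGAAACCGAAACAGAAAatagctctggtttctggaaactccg

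Ifit1 and Ifit3 hold 2 matches each, and Isg15 holds 3 that overlap. In the promoters with 1 match its first letter lies between position -213 (Cxcl10) and position -59 (Gbp2) from the start site. A match describes letters and not a bound site.

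Genes that make and relay the interferon signal also fell. Of 25 tested members of the type I interferon system 18 fell (72.0%) and none rose, with a median of -0.89, and of 21 STAT and SOCS genes 17 fell (81.0%) and none rose, with a median of -0.92. Ifnb1, interferon beta itself, was not well above background on any VSG158 array and was at least 5.77-fold lower. Irf1, a transcription factor of interferon responses, measured 4.01, 4.07 and 4.03 with vehicle and 1.77, 1.91 and 1.73 with VSG158 (change -2.23, SE 0.10). Its replicates were tight and the groups far apart. Stat2, which carries the interferon signal to the nucleus, changed by -1.84 (SE 0.13). Socs3, a feedback inhibitor of cytokine receptors, changed by -1.06 (SE 0.10). Irf7, the factor that amplifies interferon production, measured 8.82, 8.93 and 9.02 with vehicle and 8.36, 8.35 and 8.21 with VSG158 and was not called (-0.61, SE 0.23, limma adjusted p = 0.0515). Without VSG158 replicate 3 the counts of falls were 17 and 17.

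Upstream of these, the Toll-like receptors and their adaptors moved both ways: of 26 tested, 7 were higher (26.9%) and 9 lower (34.6%), with 3 higher under median scaling. Tlr3, the receptor for double-stranded RNA, changed by -2.06 (SE 0.13), and Tlr4, the LPS receptor, by -0.01 without a call. Irak3, an inhibitor of this pathway, rose by 0.93 (SE 0.12). Of 25 MHC class I presentation genes 16 fell (64.0%) and 1 rose, the peptide-trimming enzyme Erap1 (1.04), measured on 2 VSG158 arrays, a call that ended with the array position in the fit (limma adjusted p = 0.161), in the fit on these 6 arrays alone (0.0653) and without VSG158 replicate 2 (0.0614).

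Interleukin-1 family genes moved both ways. Of 13 tested, the 8 that fell are cytokines or soluble regulators and the 3 that rose are receptor chains, with a median of -0.99. Leaving out VSG158 replicate 3 gave 8 falls and 4 rises. Il33, an alarm cytokine stored in the nucleus, measured 6.47, 6.62 and 6.80 with vehicle and 1.34, 2.19 and 1.21 with VSG158, a 33.2-fold fall (change -5.05, SE 0.26, limma adjusted p = 2.84e-08). VSG158 replicate 2 was the highest of its group and still far below vehicle. Its receptor chain Il1rl1 (ST2) measured -1.01, -1.32 and -0.70 with vehicle and 1.78, 2.07 and 2.73 with VSG158, a 9.23-fold rise (change 3.21, SE 0.36). Il1a changed by -3.69 (SE 0.18), the IL-36 alpha gene Il1f6 by -2.16 (SE 0.10), and the receptor antagonist Il1rn by -0.50 (SE 0.14). The other receptor genes that rose were not above background on any vehicle array: Il1rl2 was at least 2.61-fold higher and Il18rap at least 3.98-fold higher.

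Among other interleukins and their receptors, 14 of 19 fell (73.7%) and 1 rose, the receptor chain Il6ra (0.69), the same counts as without VSG158 replicate 3. Il15, a survival factor for natural killer and memory T cells, measured 3.38, 3.48 and 3.28 with vehicle and -0.03, 0.18 and -0.17 with VSG158, a 10.4-fold fall. Il19, of the IL-10 family, measured 3.73, 3.96 and 3.95 with vehicle and 0.02, 0.45 and -0.15 with VSG158 (change -3.77, SE 0.21). Both genes separated completely by group.

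Of 22 chemokines 12 fell (54.5%) and 2 rose, and without VSG158 replicate 3, 12 fell and 3 rose. Ccl7, an attractant of monocytes, measured 7.39, 7.40 and 7.34 with vehicle and 4.47, 4.68 and 4.72 with VSG158 (change -2.76, SE 0.09). The chemokines that rose were Pf4, which platelets are known for (1.49, SE 0.17), and Ccl25, an attractant of thymocytes and gut lymphocytes (1.79, SE 0.38). Ccl25 measured -0.89, -0.69 and -0.58 with vehicle and 0.48, 1.44 and 1.3 with VSG158. Among chemoattractant receptors, Ccrl2 changed by -3.10 and the fatty acid receptor Gpr84 rose by 1.85 (SE 0.12).

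In the TNF superfamily 13 of 23 fell (56.5%), 11 without VSG158 replicate 3, and none rose. Tnfrsf9 (4-1BB, a costimulatory receptor) measured 1.94, 2.46 and 2.47 with vehicle and -2.11, -2.30 and -2.40 with VSG158, a 23.6-fold fall. Cd40, which receives help from T cells, changed by -1.95 (SE 0.17). Costimulation and adhesion genes were lower for 14 of 27 (51.9%) and higher for 3, namely the integrin chains Itga4 and Itgam and the checkpoint receptor Havcr2. With the array position in the fit the change of Itga4 went from 1.69 to 0.82 and its call ended (limma adjusted p = 0.0875). The activation marker Cd83 measured 4.31, 4.22 and 4.28 with vehicle and 1.28, 1.13 and 1.22 with VSG158, an 8.37-fold fall. For Tnfrsf9 and Cd83 every VSG158 array was below every vehicle array by over 2 log2 units.

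Immediate-early and ATF/AP-1 transcription factors, the first genes that a stimulus turns on, fell in 21 of 30 (70.0%) and rose in 4, with a median of -1.07. When VSG158 replicate 3 was left out 20 fell and 3 rose. Atf3, a repressor induced by stress, measured 6.24, 6.50 and 6.30 with vehicle and 3.45, 3.37 and 3.62 with VSG158, a 7.29-fold fall, and Maf, a factor of macrophage maturation, changed by -2.41 (SE 0.13). Batf3, an AP-1 factor known from dendritic cells, went the other way: it was dim on all vehicle arrays (-5.51, -4.56 and -5.05) and measured -0.74, -1.03 and -1.35 with VSG158, at least 10.6-fold higher. The other members called higher were Batf (0.69), Nr4a2 (0.58) and Egr1 (0.36), and with median scaling the calls of Batf (limma adjusted p = 0.113) and Nr4a2 (0.135) ended. NF-kB subunits and inhibitors changed less, with 13 of 23 lower (56.5%), a median of -0.39 and 1 higher, the nuclear inhibitor Nfkbid (0.98), a call that ended with the array position in the fit (0.55, limma adjusted p = 0.0655). Of the MAPK phosphatases and mRNA decay factors, 10 of 21 were lower (47.6%), among them the phosphatases Dusp10 (-3.12, SE 0.15) and Dusp14 (-2.60, SE 0.10), and 1 was called higher, Zc3h12c (0.54). The arrays of the groups overlap for Zc3h12c, and its call ended with median scaling (limma adjusted p = 0.276) and in the fit on these 6 arrays alone (0.103). With arrays scaled to their median 7 NF-kB genes were lower, and without VSG158 replicate 3, 11.

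**Figure D3:**
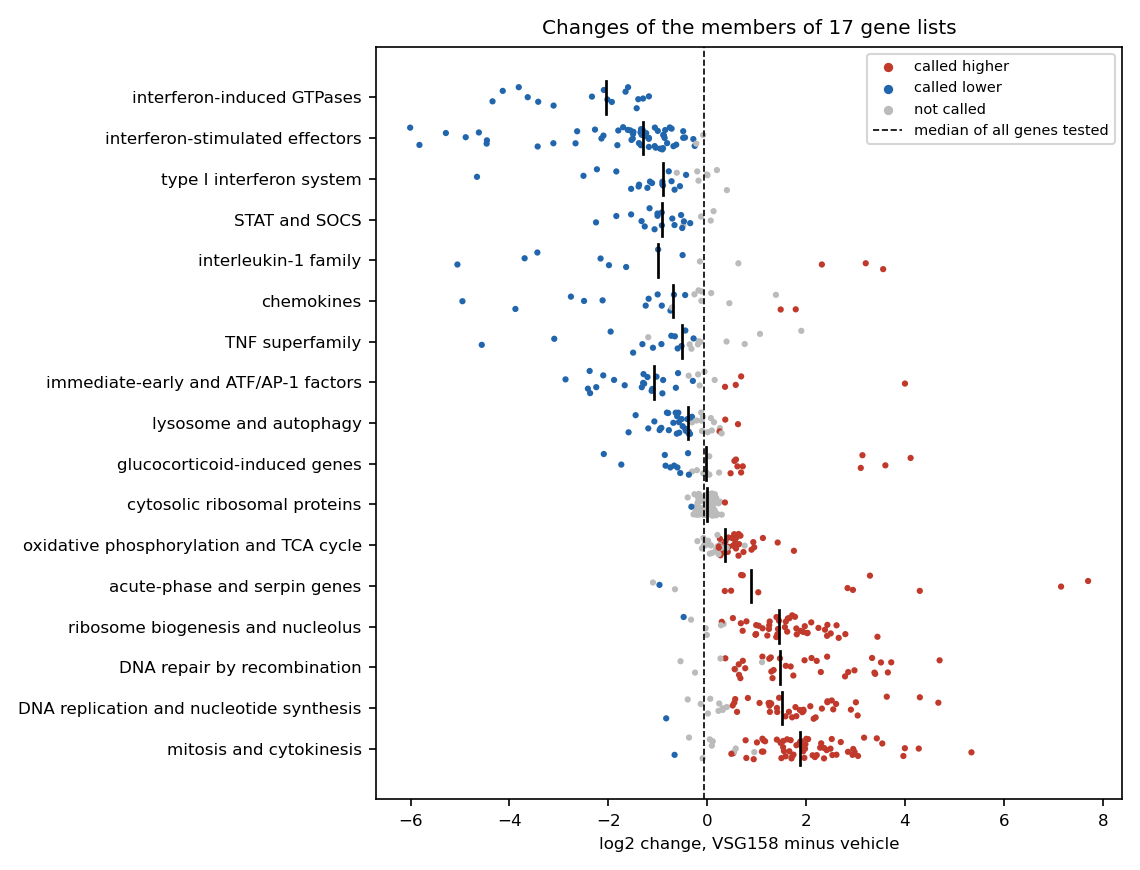
Log2 change, VSG158 minus vehicle (horizontal axis), of each tested member of 17 gene lists, with red points for members called higher, blue for those called lower and grey for those not called. Black ticks mark each list's median and the dashed line the median of all genes, -0.06. Interferon lists lie to the left down to -6.01, the 64 cytosolic ribosomal proteins stay around 0, and the replication, mitosis, repair and ribosome biogenesis lists lie to the right.

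Genes of DNA replication and nucleotide synthesis rose. Of 48 tested, 38 rose (79.2%, against 19.7% of all genes) and 1 fell, the nucleoside kinase Dck (-0.83), with a median of 1.52. The call of Dck ended with the array position in the fit (-0.60, limma adjusted p = 0.092). Without VSG158 replicate 3, 41 rose. The 6 subunits of the MCM helicase, which unwinds DNA at the fork, rose by 1.95 (Mcm4) to 3.04 (Mcm6). Mcm6 measured 2.06, 1.94 and 2.04 with vehicle and 5.07, 5.09 and 5.01 with VSG158, an 8.25-fold rise (change 3.04, SE 0.10, limma adjusted p = 2.28e-09), the replicates of each group agreeing closely. Dut, which keeps uracil out of DNA, measured -1.62, -1.65 and -1.07 with vehicle and 2.18, 2.37 and 2.0 with VSG158 (change 3.63, SE 0.16). Pcna, the clamp that holds the polymerase on DNA, measured 4.53, 4.53 and 4.70 with vehicle and 4.95, 4.82 and 4.71 with VSG158 and was not called (0.24, limma adjusted p = 0.0645).

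Mitosis and cytokinesis genes rose in 60 of 69 (87.0%), with or without VSG158 replicate 3, and their median was 1.88. The 1 member that fell was the securin gene Pttg1 (-0.66). Ccna2, cyclin A2, which drives S phase and entry into mitosis, measured -2.67, -2.80 and -2.56 with vehicle and 1.86, 1.82 and 1.12 with VSG158, a 19.4-fold rise. Plk1, a kinase of the spindle poles, measured -1.43, -1.41 and -1.07 with vehicle and 1.69, 1.90 and 1.65 with VSG158 (change 3.05, SE 0.13). VSG158 replicate 3 was the lowest of its group for both genes and well above every vehicle array. Fbxo5, an inhibitor of the anaphase-promoting complex, rose by 3.87 (SE 0.11).

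In homologous recombination and related repair, 32 of 37 genes rose (86.5%) and none fell, with a median of 1.47, and 31 rose without VSG158 replicate 3. Of the 23 above background on all 15 arrays 19 rose. Rad51ap1, a factor of homologous recombination, measured -3.06, -2.80 and -2.75 with vehicle and 0.94, 0.94 and 0.68 with VSG158, a 13.2-fold rise. Of its other probes, 1 was called the same way and 1 had the opposite sign without a call.

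Regulators of the G1 phase moved both ways: 15 of 38 rose (39.5%) and 16 fell (42.1%). Those that rose include the transcription factors E2f1 (0.84), E2f2 (0.69) and E2f8 (2.34), the dimer partner Tfdp1 (2.05, SE 0.10), cyclin E1 (Ccne1, 1.45) and cyclin D1 (Ccnd1, 1.54, SE 0.09). Those that fell include E2f3 (-1.23) and the CDK inhibitors Cdkn1a (-2.09, SE 0.12), Cdkn1b (-1.43) and Cdkn2d (-1.38). Cdkn1a (p21) measured 4.43, 4.73 and 4.43 with vehicle and 2.47, 2.46 and 2.40 with VSG158. In the MYC network, Myc changed by -2.24 (SE 0.24), its antagonist Mxd1 by -2.98 (SE 0.18) and Mxi1 by -2.21, whereas Mycn rose by 1.93. Mxd1 measured 3.25, 3.56 and 3.44 with vehicle and 0.46, 0.73 and 0.10 with VSG158, groups that do not overlap. E2f7 was at least 7.29-fold higher by 1 probe, dim on all vehicle arrays, and was called the opposite way by its other probe (-1.01, limma adjusted p = 0.0126). The proapoptotic Bcl2l11 (BIM) led the BCL2 family and caspase genes, of which 16 of 30 fell (53.3%) and 1 rose. It changed by -2.31 (SE 0.11).

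The letters TTTNGCGC, which E2F factors recognise, were searched in the same promoter windows on both strands. They stood in 12 of 39 DNA replication genes with a window (30.8%), in 3.84% of the genes called higher and in 1.81% of those called lower. The share was 2.6% over tested genes and 1.57% over all genes with a window. Shown are 3 promoters of replication genes that rose: Mcm6, Mcm5 (2.15, SE 0.12) and the polymerase alpha gene Pola1 (2.32, SE 0.19).
Mcm6 (chr1:128359720-128359840, minus strand): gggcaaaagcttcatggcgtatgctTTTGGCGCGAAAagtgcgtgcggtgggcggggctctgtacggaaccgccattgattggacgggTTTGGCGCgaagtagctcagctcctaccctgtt
Mcm5 (chr8:75109331-75109392, plus strand): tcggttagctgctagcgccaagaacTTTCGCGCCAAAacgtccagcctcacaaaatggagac
Pola1 (chrX:93632261-93632318, minus strand): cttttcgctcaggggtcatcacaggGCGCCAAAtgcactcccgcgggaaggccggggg

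Mcm6 holds 3 matches and Mcm5 holds 2, in part overlapping on opposite strands. The E-box CACGTG, which MYC and clock factors bind, stood in 7 of 44 ribosome biogenesis promoters (15.9%), beside 10.8% of tested genes. Its share was 13.8% over the genes called higher and 11% over those called lower. Among other lists that rose, its share was 17.9% for DNA replication and 6.9% for mitosis. The E-box also stood in 6 of 24 sterol and fatty acid synthesis promoters. A share above that of tested genes was therefore not particular to ribosome biogenesis. The palindrome of the glucocorticoid receptor was rare in these short windows, in 0.471% of the genes called higher and 0.165% of those called lower. It stood in 0.401% of tested genes and in 0.537% of all genes with a window. The NF-kB motif stood in 2.47% of the genes called lower and 1.85% of those called higher, beside 2.12% of tested genes. For the sterol element TCACNCCAC the shares were 1.38% and 1.19%, beside 1.41% of tested genes.

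**Figure D4:**
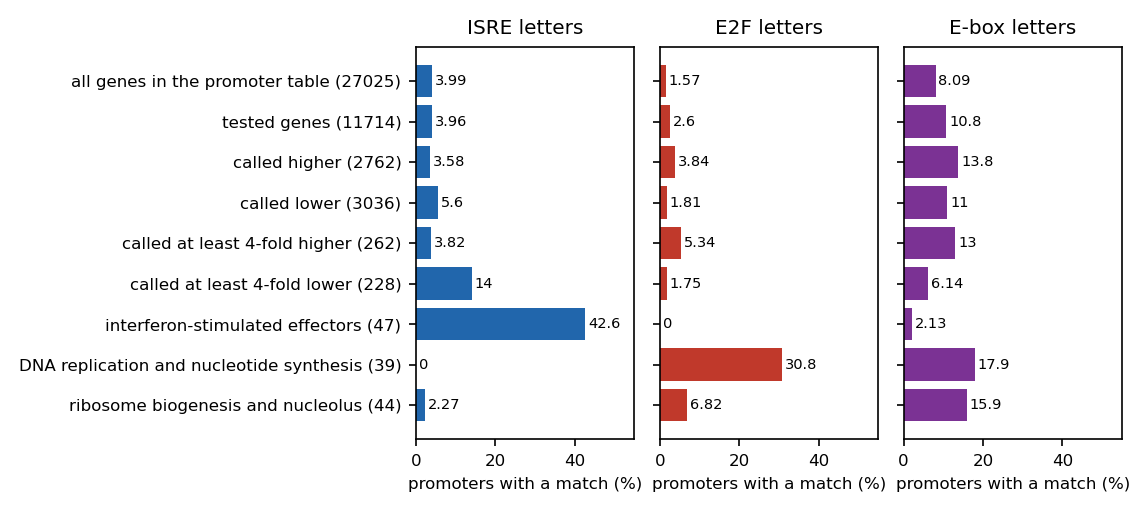
Percentage of promoter windows with at least 1 match to the letters of the interferon-stimulated response element (ISRE), E2F or the E-box (horizontal axes) in sets of genes, with the number of genes with a window in parentheses. The ISRE bar reaches 42.6% for the interferon-stimulated effectors and the E2F bar 30.8% for the DNA replication genes, against 3.99% and 1.57% of all genes. Over tested genes the shares were 3.96% and 2.6%.

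Ribosome biogenesis genes, which make and process ribosomal RNA, rose in 44 of 50 (88.0%), with a median of 1.44, and 43 rose without VSG158 replicate 3. The member that fell, Ubtf, a factor of RNA polymerase I, did so on the 75th percentile scale (-0.48) and not in the authors' value table (0.0147). Dkc1, which modifies uridines in ribosomal RNA, measured -2.63, -3.06 and -3.23 with vehicle and 0.45, 0.68 and 0.29 with VSG158, a 10.9-fold rise. Nop56, of the methylating snoRNA particle, measured 2.96, 2.79 and 3.0 with vehicle and 5.35, 5.36 and 5.32 with VSG158, a 5.37-fold rise. Polr1b, a subunit of RNA polymerase I, rose by 2.43 (SE 0.18). The cytosolic ribosomal proteins themselves hardly moved: of 64 tested, 1 was called higher (Rps2, 0.36), 1 lower (Rplp0, -0.32), and the median was -0.0042. That count depends on the scaling, with 24 called higher after quantile normalization, where the median was 0.18, and none with median scaling.

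Polyamine enzymes divided. Srm, which makes spermidine, measured 0.17, -0.07 and -0.21 with vehicle and 3.39, 3.32 and 3.19 with VSG158, a 10.1-fold rise. Smox, which oxidises spermine, measured 5.77, 6.31 and 6.10 with vehicle and 2.06, 2.33 and 2.22 with VSG158, a 14.5-fold fall, and Odc1, which starts the pathway, changed by -1.19 (SE 0.11). The groups did not overlap for any of these 3 genes. Arginase 1 (Arg1), which supplies ornithine, was at least 11.3-fold lower.

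**Figure D5:**
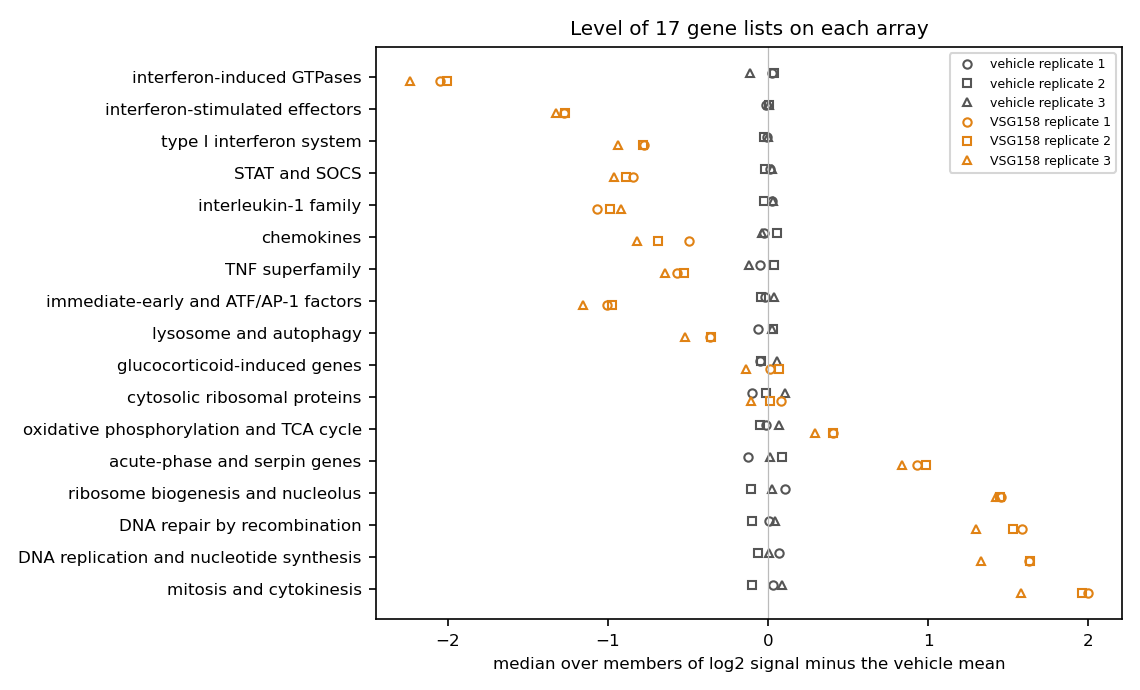
Median over the tested members of 17 gene lists of the log2 signal minus the vehicle mean (horizontal axis) on each of the 6 arrays, with grey symbols for vehicle, orange for VSG158 and shapes for the replicates. The VSG158 arrays lie between -2.23 and -2.0 for the interferon-induced GTPases and between 1.42 and 1.46 for ribosome biogenesis, and both groups straddle 0 for glucocorticoid-induced genes and cytosolic ribosomal proteins.

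Oxidative phosphorylation and TCA cycle genes rose in 33 of 53 (62.3%) and fell in none, by a median of 0.37. Idh3a, of the NAD-dependent isocitrate dehydrogenase, had the largest rise of this list (1.75, SE 0.16), from 2.63, 2.44 and 2.71 with vehicle to 4.49, 4.34 and 4.21. The count depended on the fit: 8 were called higher with arrays scaled to their median, where the median change was 0.31, 19 with the array position in the fit, and 35 without VSG158 replicate 3. Glycolysis genes and HIF-1 targets were lower in 19 of 37 (51.4%) and higher in 6, led by the vasodilator gene Adm (-2.50, SE 0.18) and the angiogenic factor Vegfa (-2.28, SE 0.12). With median scaling 11 of them were lower and 3 higher, and with the array position 12 and 3.

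Lipid genes moved both ways. Of 33 sterol and fatty acid synthesis genes 19 rose (57.6%) and 3 fell (Insig1, Sqle and Srebf1). With median scaling 9 rose and the calls of Sqle (limma adjusted p = 0.159) and Srebf1 (0.28) ended, and with the array position those of all 3 falls did (0.112 for Insig1). Without VSG158 replicate 3, 20 rose and 2 fell. Fasn, fatty acid synthase, measured 2.96, 2.41 and 2.53 with vehicle and 4.70, 4.72 and 4.64 with VSG158, a 4.16-fold rise. Of 30 genes of LXR signalling, lipid transport and storage 16 fell (53.3%), 10 with median scaling, and 5 rose, with 3 under median scaling or without vehicle replicate 3. Without VSG158 replicate 3, 17 fell and 6 rose. Abca1, which exports cholesterol, changed by -2.55 (SE 0.20) and Fabp4, a fatty acid carrier, by 2.87 (SE 0.13). Fabp4 measured 3.74, 3.51 and 3.80 with vehicle and 6.56, 6.70 and 6.41 with VSG158, with no overlap.

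Known targets of glucocorticoids moved both ways. Of 28 tested, 10 rose (35.7%) and 10 fell (35.7%), with a median of -0.03. With median scaling 4 rose and 6 fell, with the array position 9 rose and 6 fell, and without VSG158 replicate 3, 10 rose and 7 fell. Among those that rose, Fkbp5 had the smallest adjusted p of the list (change 3.60, SE 0.13, limma adjusted p = 4.05e-09), a 12.2-fold rise. Angptl4, an inhibitor of lipoprotein lipase, measured -3.21, -3.53 and -2.73 with vehicle and -0.29, -0.01 and 0.25 with VSG158, an 8.82-fold rise. Klf9 (0.61) and Tsc22d3 (0.58) rose as well, calls that ended with median scaling (limma adjusted p = 0.102 and 0.146). Sgk1, a kinase of salt transport, rose by 0.47 (SE 0.12), a call that ended with median scaling (limma adjusted p = 0.245). Among those that fell were Rgs2, a brake on G-protein signalling (-2.09, SE 0.11), Ddit4, an inhibitor of mTORC1 (-1.74, SE 0.18), and Anxa1 (-0.86). Rgs2 measured 4.22, 4.04 and 4.32 with vehicle and 2.12, 2.27 and 1.91 with VSG158.

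Acute-phase and serpin genes rose in 11 of 14 (78.6%), the same count without VSG158 replicate 3 and 7 with median scaling. Serpina3f, a protease inhibitor, rose by 4.30 (SE 0.14), and 4 of the 5 tested genes of the Serpina3 family rose, near-copies of each other. Cp, ceruloplasmin, a copper-carrying ferroxidase, measured 2.09, 2.38 and 2.07 with vehicle and 5.23, 4.92 and 4.91 with VSG158 (change 2.84, SE 0.12). Wfdc21, a small secreted protein, measured 0.62, 0.53 and 0.38 with vehicle and 4.36, 4.66 and 4.16 with VSG158, a 14.7-fold rise. The groups lay over 2 log2 units apart for each of them. The member of the list that fell was complement C3 (-0.96).

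Uptake receptors and proteases also split by gene. Mertk, a receptor for dying cells, rose by 4.11 (SE 0.46), while the related Axl changed by -1.76 (SE 0.17). More efferocytosis and annexin genes fell than rose: their median was -0.38, and across the alternatives 9 to 15 were lower and 2 to 4 higher. Mertk was above background on 1 of 3 vehicle arrays, at -3.66, -5.26 and -6.24, against -0.81, -0.75 and -1.25 with VSG158, so the size of its rise is uncertain. Clec7a (dectin-1), which binds fungal glucan, changed by -3.44 (SE 0.17), and scavenger and lectin receptors fell in 13 of 27 (48.1%) and rose in 5, with 7 lower under median scaling or with the array position. Mmp8, a collagenase, measured -3.72, -3.61 and -3.29 with vehicle and 0.38, 0.39 and 0.06 with VSG158, a 14-fold rise. Timp1, an inhibitor of such proteases, measured 5.62, 5.64 and 5.76 with vehicle and 2.17, 2.24 and 1.49 with VSG158, a 13.1-fold fall. Of 23 matrix protease and coagulation genes, 11 fell (47.8%) and 5 rose, and of the 16 above background on all arrays 6 fell.

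In iron handling, Hmox1, which breaks down haem, measured 7.87, 7.97 and 7.98 with vehicle and 5.57, 5.8 and 5.68 with VSG158, a 4.79-fold fall. Hepcidin (Hamp), the hormone that closes the iron exporter, was at least 4.90-fold lower, and the exporter gene Slc40a1 at least 1.28-fold lower, both dim on all VSG158 arrays. The transferrin receptor Tfrc rose by 1.26 (SE 0.11). Over all 37 NRF2, iron and oxidative defence genes, 7 rose (18.9%) and 9 fell (24.3%), against 19.7% and 24.5% of all genes, and 4 rose with median scaling.

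Lysosome and autophagy genes were lower in 27 of 44 (61.4%), by a median of -0.39, in 14 with median scaling and in 22 without VSG158 replicate 3. Gpnmb, a lysosomal glycoprotein of macrophages, had the largest fall (-1.59, SE 0.11). Clock genes were lower in 9 of 15 (60.0%), with or without VSG158 replicate 3, among them the repressor Bhlhe40 (-2.35, SE 0.16), and Nfil3 was higher (0.70). Of 32 genes of the unfolded protein and integrated stress response 13 were higher (40.6%), led by the chaperones' helper Dnajc3 (1.53), and 6 lower, and 8 were higher with median scaling. Replication-dependent histones divided, with 11 of 31 higher (35.5%) and 10 lower (32.3%), 6 being higher with median scaling, and their copies are so alike that a probe may read several. Csf1r, the receptor that macrophages need to survive, rose by 1.35 (SE 0.21), while 6 of 10 colony-stimulating factor and receptor genes fell (60.0%).

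Many changes could be given only as bounds, because the gene was not above background on any array of 1 group. This held for 242 called genes dim on all vehicle arrays and 230 dim on all VSG158 arrays. Each bound sets the brighter group's mean against the lowest signal well above background, or the gene's own signal where higher. Among genes that rose, Ankle1, a DNA endonuclease, measured -6.24, -6.23 and -6.03 with vehicle and -0.68, -0.60 and -0.64 with VSG158, at least 14.7-fold higher, and the mitotic kinase Ttk was at least 6.43-fold, the spindle gene Aspm at least 5.77-fold and the Fanconi gene Fancb at least 5.51-fold higher. Among genes that fell, Flrt3, a membrane adhesion protein, measured 0.22, 0.06 and 0.20 with vehicle and was at least 19-fold lower, and Inhba, a subunit of activin, was at least 5.63-fold lower. The neuropeptide gene Npy was at least 4.06-fold lower.

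Probes for long intergenic RNAs had their own share of calls: of 1713 tested, 98 were called higher and 352 lower (26.3% in all), against 51.2% of 13246 RefSeq genes. The difference between these classes was not tested.

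Macrophage markers were present. All 12 were tested, 11 of them above background on all 6 arrays, and their summed linear level was 905 to 1024 times the 75th percentile with vehicle and 884 to 975 with VSG158. Of these, 6 were higher, including Csf1r, Itgam (1.00) and Cd33 (1.65), and 3 lower, the Fc receptor Fcgr1 (-1.78), the transcription factor Spi1 (-1.01) and Cd14 (-0.34). Of the markers of other cell types, Cd79a and Cd79b of B cells, Cd3g and Cd8a of T cells, Col1a1 and Col3a1 of fibroblasts, Epcam of epithelium and Cdh5 of endothelium did not pass the filter for testing, and other members of the same lists did. Pax5 of B cells (-1.72) and Cd3d of T cells (-1.74) were called lower, each well above background on 3 vehicle arrays and 1 VSG158 array. Dcn of fibroblasts was above background on all 6 arrays and called higher (0.95). Camp of neutrophils was called lower (-0.55). Of 9 osteoclast markers tested, 8 were above background on all 6 arrays, 4 were lower, led by Atp6v0d2 (-1.45), and none was higher. Of 3 dendritic cell markers tested none was called. Cd3e, Cd8b1, Lck, Ms4a1, Col1a2, Krt5, Kdr, Pecam1 and Vwf were tested and not called. The summed level of the T and NK cell list was 29.8 to 47.6 with vehicle and 37.8 to 120 with VSG158, the highest on replicate 3, where Cd4 measured 6.81 against 4.65 to 5.40 on the other 5 arrays. The neutrophil list behaved likewise (132 to 142 and 121 to 186), with Elane at 6.77 on that array. S100a8 of that list measured 6.24 to 6.64 on the 6 arrays. Cd4, Elane, S100a8 and Tpsb2 were not called, and the part of such signal in other results was not tested.

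VSG159, the other coded steroid, was given at the same dose and time. Against it limma called none of 19499 genes (0.0%), with 1203 at an unadjusted p under 0.05 and a smallest adjusted p of 0.803. This does not show that the compounds act alike: the 95% interval of a gene's difference had a median half-width of 0.38, and the median absolute difference was 0.14. For Hp the difference, VSG158 minus VSG159, was 0.17 (95% interval -0.24 to 0.58), for Rsad2 0.39 (-0.21 to 0.99), for Mcm6 0.12 (-0.11 to 0.35) and for Il33 0.60 (0.04 to 1.16, adjusted p = 0.803). The largest differences among genes above background whose arrays did not overlap were Mrgprg (1.46) and Olfr1048 (-2.85), both with an adjusted p of 0.803. With slide as a block 34 genes were called, without VSG159 replicate 3, the array on the other slide, 34, and without VSG158 replicate 1 35 were called.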

How the data were processed

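RNA of 15 RAW264.7 samples in 5 groups of 3 was hybridised to Agilent 1-colour mouse arrays, and the 3 VSG158 and 3 vehicle arrays are compared here. Agilent Feature Extraction, per the file headers, gave the deposited processed intensity of each spot, with local background subtracted, and flags for spots well above background. A deposited log2 value table made by the authors served as an alternative. Per the submitters' processing notes limma was among their tools; its version and design are not given in the sources used here.

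Each array's log2 processed intensity was set relative to its 75th percentile over noncontrol spots, and outlier spots were left out. A probe was tested when well above background on at least 2 of 3 arrays of at least 1 group, and each gene took its tested probe with the highest mean. limma 3.58.1 in R 4.3.3 (lmFit and eBayes, two-sided, Benjamini-Hochberg over all genes) was fitted to all 15 arrays with group as the only term, which left 10 residual degrees of freedom. Arrays give no read depth, and their number limits the precision. The script was tested on simulated data. An exact permutation test of 3 against 3 arrays cannot go below p = 0.1 and was not used.

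Of 36870 gene names in the files, 23464 were found by accession in the RefSeq table and 659 were updated. Probe positions are those of the array design on mm9, and promoter letters are RefSeq's on GRCm38.p6.

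The comparison, the gene lists and the genes named were chosen with earlier results of these data known. Genes were named by rule: the 15 largest rises and falls among called genes above background on all 6 arrays with no overlap between groups, skipping predicted, clone and lincRNA names; the 10 largest bounds each way; of each list the 4 members with the smallest adjusted p and up to 3 that moved against its median; key glucocorticoid, inflammatory and lipid genes; the 5 largest differences each way from VSG159; and the Gbp, Ifit, Serpina3, Ccl, Mcm and Ms4a families, by count. Other members named to account for a list were chosen after their values were seen. Alternatives changed the scaling, background, filter, probes, blocks and arrays. List counts without VSG158 replicate 3 were added after seeing the data.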

Additional observations from a re-analysis of the deposited data

How the results depend on the processing

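Against vehicle, 4992 genes were called with arrays scaled to their median. When every tested probe stood on its own, 12990 of 28508 probes were called, a count of probes and not of genes. Single arrays left out gave 7403 genes (without vehicle replicate 2) to 9260 (without VSG159 replicate 3), and without VSG158 replicate 3 the split was 4085 higher and 4110 lower. The array position with slide as a block gave 5809 calls, 52.3% of them higher against 44.6%. Same-numbered deviations from the group means correlated at 0.018, -0.21 and 0.187. With 3 arrays per group these values cannot show whether replicate numbers pair the arrays. With the replicate block 7986 genes were called. Among the alternatives fitted by gene, none had a called gene shared with the opposite sign. By probe, 208 of the 6269 genes with several tested probes had probes called both ways. Against VSG159 the count of 0 became 34 with slide as a fixed block, and 0 to 35 with single arrays left out (35 without VSG158 replicate 1, 34 without VSG159 replicate 3). It was 0 with the replicate block. Of 252 named genes, 218 kept direction and call under every alternative tried. Cxcr3 (-0.0237) and Ubtf (0.0147) reversed in the authors' deposited value table, and the cause was not tested. Of 42 lists, 38 kept the sign of their median. The exceptions were glucocorticoid-induced genes, chemoattractant receptors, cytosolic ribosomal proteins and NRF2 and iron genes. Calls of Nr4a2, Zc3h12c, Ubtf, Rplp0 and Srebf1 ended without 1 of several single arrays. Signals near background limit sizes, which are then bounds.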
